A study of Mus musculus with 8 samples.

Results

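The genes described here encode the building blocks of perineuronal nets: the lecticans *Acan*, *Bcan*, *Ncan* and *Vcan*, the link proteins *Hapln1* and *Hapln4*, tenascin R (*Tnr*) and the hyaluronan synthases *Has2* and *Has3*. They were chosen by gene name, with all transcript rows of a gene name summed, and all 9 were found among the 23335 gene names of the count table. Messenger RNA was counted in single interneurons of mouse frontal cortex, in units of molecules marked by a random tag (unique molecular identifier, UMI). The study's purpose was to see how well co-expression between genes repeats across cells, batches and cell types. Chandelier cells (ChC) and parvalbumin cells (Pv) were profiled in 8 library batches of up to 16 cells, and 126 cells had counts. The groups hold 4 batches each, from 2 animals each.

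All mice are labelled WT. ChC came from female *Nkx2.1*-CreER; Ai14 mice given 150 ul of tamoxifen at 20 mg/ml at E17.5, an embryonic day. Batches 1 and 2 were taken from animal 1 at postnatal day 31, and batches 3 and 4 from animal 2 at postnatal day 32. Pv cells came from female *Pv*-ires-Cre; Ai14 mice, with batches 5 and 6 from animal 3 at postnatal day 29 and batches 7 and 8 from animal 4 at postnatal day 35. No tamoxifen was given to the Pv mice, and no other treatment is labelled. Red fluorescence of the Ai14 reporter, which marks any cell that has had active Cre, guided the picking of cells by hand. The *Nkx2.1* driver labels cells by their birth date and origin, and the *Pv* driver labels cells that express parvalbumin, which some chandelier cells do too. The labels give each cell type its own mouse line and its own flow cell, whose effects cannot be told apart from it. The lane followed the animal, with animals 1 and 3 in lane 1 and animals 2 and 4 in lane 2 of their flow cells.

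Perineuronal nets are lattices of extracellular matrix around the cell body and proximal dendrites of many neurons, in the cortex mainly of fast-spiking parvalbumin interneurons. Hyaluronan made at the cell membrane forms the backbone, lecticans bind it through their amino-terminal domains with link proteins holding the bond, and tenascin R joins lecticans at their other end. Nets mature late in postnatal development, as plasticity of the circuit declines.

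Depth differed between batches. Batches 1 to 4, of ChC, reached totals of 527743, 657957, 2898413 and 1307666 UMI. For batches 5 to 8, of Pv, the totals were 456458, 501563, 370238 and 921212 UMI. A ChC cell had a median of 39200 UMI and a Pv cell one of 27116, with 14 of 63 ChC and 4 of 63 Pv cells under 10000. Levels are given below as CPM, the UMI of a gene per 1000000 UMI of its batch, counted over the 6481 genes that pass edgeR's filter on batches and scaled by its TMM factors; CPM of a single cell use the cell's whole total. Since 1 molecule gives 1 tag at the poly(A) end whatever the length of the transcript, levels were compared between genes without dividing by length. At these depths 1 UMI of a batch equals between 0.367 and 2.60 CPM. A gene at 0 could have had up to 3 UMI by counting error, which is 1.1 CPM in batch 3, the deepest, and 7.79 in batch 7, the shallowest. No pair of cells had identical counts.

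Markers of the labelled cell types were present in every batch. *Gad1*, *Slc32a1* and *Nkx2-1*, which mark inhibitory neurons and their origin, had UMI in all 8 batches. *Pvalb* stood at 153, 191, 97.5 and 81.6 CPM in ChC batches 1 to 4 and at 1623, 761, 550 and 1100.0 in Pv batches 5 to 8. *Erbb4*, a receptor rich in these interneurons, stood at 4057, 5492, 3764 and 3960 in the ChC batches and at 1253, 1750.0, 1780.0 and 1908 in the Pv batches. The other listed interneuron markers, *Gad1*, *Gad2*, *Slc32a1*, *Lhx6*, *Nkx2-1* and *Kcnc1*, overlapped between the groups. *Kcnc1* had means of 934 CPM in ChC and 638 in Pv. The groups did not overlap in *Pvalb*, higher in Pv, or in *Erbb4*, higher in ChC. Even so, the comparison of animals described below gave *Pvalb* a log2 fold change of ChC over Pv of -2.99 (SE 0.63, edgeR adjusted p = 0.637), while DESeq2 gave it an adjusted p of 0.0249.

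Some batches stood apart in markers of other cells. Of 6 astrocyte markers 5 had any UMI, *Slc1a3* the most, and their summed level was 23.2, 124, 63.4 and 256 CPM in the ChC batches and 12.6, 4.63, 322 and 118 in the Pv batches. Of 6 oligodendrocyte markers 3 had UMI, *Mbp* the most, with sums of 6.96, 10.5, 145 and 217 in ChC and 7.55, 2.31, 223 and 108 in Pv. Of 5 pyramidal cell markers 3 had UMI, *Slc17a7* the most, with sums of 11.6, 52.5, 4.77 and 95.1 in ChC and 12.6, 2.31, 322 and 28.3 in Pv. Batches 4 and 7 were thus the highest of their groups in all 3 lists, and batches 5 and 6 were low.

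Markers of precursor, immune and vessel cells were sparser. For oligodendrocyte precursors 3 of 6 markers had UMI, with sums of 4.64, 105, 0.733 and 5.05 in the ChC batches, mostly *Gpr17*, and 0, 0, 10.4 and 55.6 in the Pv batches, mostly *Pdgfra*. For microglia 5 of 6 had UMI, with sums of 0, 3.50, 10.3 and 96.8 in ChC and 2.52, 6.94, 51.9 and 2.27 in Pv, and *P2ry12* and *Ctss* led in batches 4 and 7. For endothelial cells 3 of 5 had UMI, *Flt1* the most over all batches, and the sums lay between 6.96 and 23.4. Many defining markers were at 0 in every cell: *Gfap*, *Mag*, *Mobp*, *Opalin*, *Cspg4*, *Olig2*, *Matn4*, *C1qa*, *Cldn5*, *Ly6c1*, *Neurod6* and *Tbr1*. Zeros were common in the whole table, where 16531 of 23335 gene names had any UMI. These zeros alone therefore do not show that such cells were absent.

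Markers of other interneuron classes were found as well, 6 of 7 with UMI. Their summed level was 246, 140, 284 and 1518 CPM in the ChC batches and 101, 516, 524 and 668 in the Pv batches, and *Vip* was at 0. Batch 4 was far above the other ChC batches, with *Reln* at 459 and *Npy* at 392. The most abundant gene over all batches was *Cck*. The part of these other cells in the levels of the net genes was not tested.

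The levels of the net genes, as means of the 8 batches, ran from *Tnr* at 205 CPM, rank 1189 of the 16531 gene names with any UMI, through *Ncan* at 91.1, *Bcan* at 62.6, *Hapln1* at 55.7, *Hapln4* at 47.2 and *Vcan* at 38.9 to *Has2* at 3.01, *Has3* at 0.918 and *Acan* at 0.695. Only *Tnr* stood clear of its neighbour in this order in ChC, while *Ncan*, *Bcan*, *Hapln1*, *Hapln4* and *Vcan* overlapped with one another across batches. The place of *Bcan* depends on summing 2 rows that can share molecules, and its longer row alone had a mean of 46.9. Batch 4 carries the places of *Hapln1* and *Vcan*, whose means over the other 7 batches were 15.6 and 3.74. The order also differed in Pv alone, with means of 124 for *Ncan*, 87.8 for *Hapln4*, 78.0 for *Tnr* and 70.0 for *Bcan*. *Has2*, *Has3* and *Acan* rested on 24, 9 and 3 UMI in all. In cells, *Tnr* had a UMI in 111 of 126, *Bcan* in 76, *Ncan* in 76, *Hapln4* in 65, *Hapln1* in 51 and *Vcan* in 28. Summed over the 9 genes the batches held 279, 493, 625 and 1097 CPM in ChC and 244, 465, 491 and 349 in Pv. *Tnr* was the most abundant of the 9 in all 4 ChC batches and in Pv batch 5, while *Ncan* led in Pv batch 6 and *Hapln4* in Pv batch 8. In Pv batch 7 *Bcan* led with its rows summed, at 145, but on its longer row alone, a comparison added after the data were seen, it stood at 104, below *Tnr* at 119 and *Ncan* at 112.

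**Figure D1:**
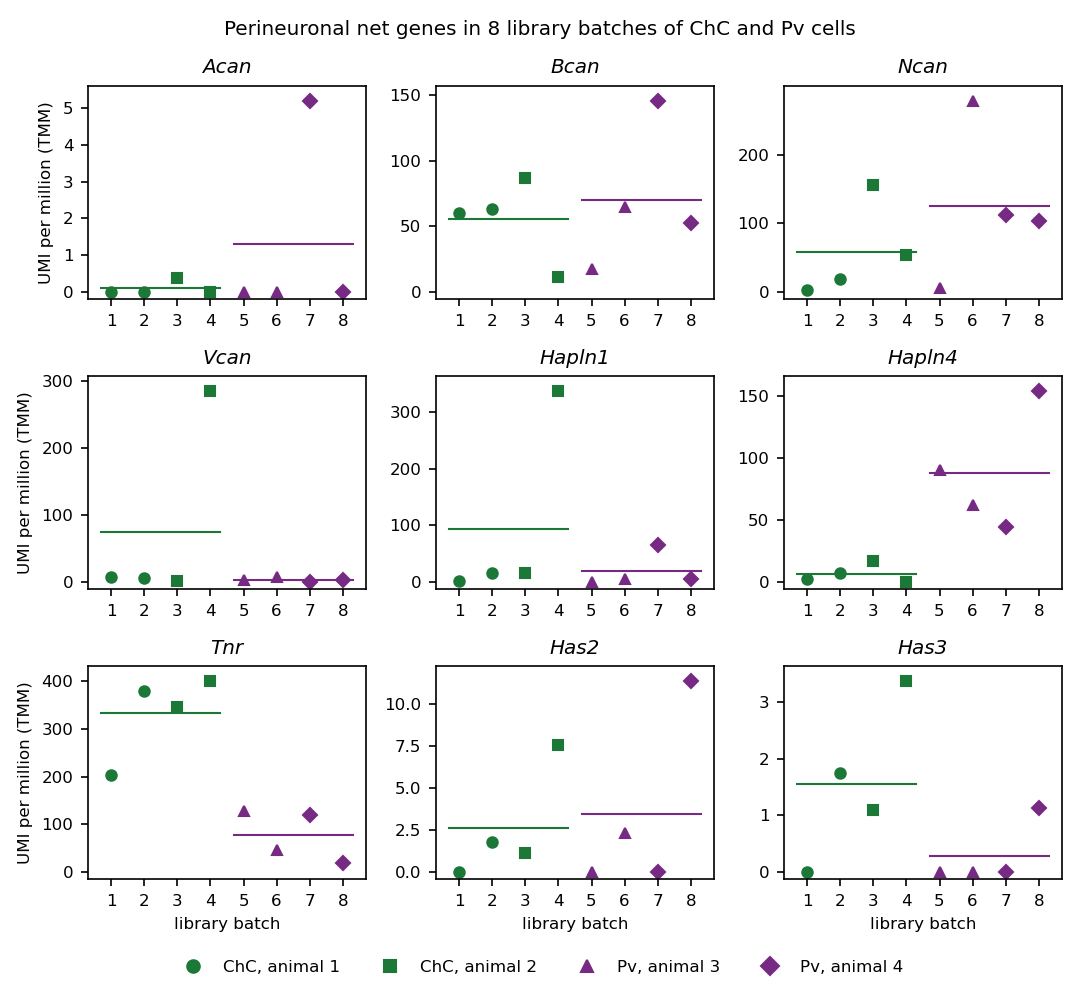
TMM-scaled CPM of each net gene in the 8 library batches, with ChC in green, Pv in purple, a symbol for each animal and a line at each group's mean. All 4 ChC batches lie above the Pv batches in *Tnr* and below them in *Hapln4*, and *Vcan* and *Hapln1* reach 285 and 337 in ChC batch 4.

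ChC and Pv were compared with edgeR on UMI summed over each animal, 2 against 2, with p adjusted over 9829 genes and a threshold of 0.05. Of these genes 0 passed (0%), so 0 net genes passed, and the lowest adjusted p of any gene was 0.233. An unadjusted p below 0.05 was found for 602 genes (6.12%) and for 2 net genes, *Tnr* and *Hapln4*, of the 5 that passed edgeR's filter on low counts. *Acan*, *Vcan*, *Has2* and *Has3* failed that filter. The unadjusted p of *Tnr* and *Hapln4* depended on the batches. Without Pv batch 8 edgeR gave 0.078 for *Tnr* and 0.10 for *Hapln4*, and without ChC batch 3 it gave 0.025 for both. DESeq2 called 151 genes on the same table, and none of them was a net gene: its adjusted p was 0.107 for *Hapln4* and 0.243 for *Tnr*. The median log2 fold change of ChC over Pv was 0.05 for the 5 net genes tested, of which 3 were above 0, and 0.04 for all genes tested, of which 5061 were above 0. The median size of the change, whatever its sign, was 2.27 for the 5 and 0.88 for all. This 2.27 is the size for *Hapln1* and depends on ChC batch 4. Without that batch the log2 fold changes were 0.37 for *Bcan*, -0.45 for *Ncan*, 0.09 for *Hapln1*, -3.03 for *Hapln4* and 2.35 for *Tnr*. An exact permutation test over the 4 animals cannot go below p = 0.333, the value it gave for *Tnr* and for *Hapln4*.

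Over batches, 6481 genes passed the filter, 4 net genes among them (*Bcan*, *Ncan*, *Hapln4* and *Tnr*). All ChC batches lay above all Pv batches in 187 genes (2.89%), which include 1 net gene, *Tnr*. All Pv batches lay above all ChC batches in 115 genes (1.77%), which include 1 net gene, *Hapln4*. *Hapln4* reached the level that the filter requires in its Pv batches alone. Its place among these genes thus follows from the filter and is no support for a difference. Since 2 batches come from each animal, they are not independent.

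Among the lecticans, aggrecan is the one most tied to nets in histology, and its transcript was the scarcest. *Acan* had 1 UMI in ChC batch 3 and 2 UMI in Pv batch 7, each in a cell of its own, and 0 in the other 6 batches. Those zeros allow levels of up to 6.96, 5.25 and 2.52 CPM in ChC batches 1, 2 and 4 and of 7.55, 6.94 and 3.40 in Pv batches 5, 6 and 8. The table's row for *Acan* ends at the same base as the gene model's furthest 3′ end, where poly(A) priming starts. The same held for all the other net genes, so this match does not set *Acan* apart. The part of a missed 3′ end in its low count was not tested. At this depth no difference in *Acan* between ChC and Pv was detectable.

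Brevican, a lectican made by neurons and glia that is cleaved in the matrix, was found in every batch. *Bcan* stood at 60.3, 62.9, 86.9 and 10.9 CPM in ChC batches 1 to 4 and at 17.6, 64.8, 145 and 52.2 in Pv batches 5 to 8. Each group had a low batch, batch 4 in ChC and batch 5 in Pv, and the groups overlapped. The means were 55.3 ± 31.9 in ChC and 70.0 ± 54.1 in Pv (SD, n = 4 batches). Its log2 fold change of ChC over Pv was 0.05 (SE 1.11, edgeR adjusted p = 0.999), with a sign that turned in several alternative fits.

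*Bcan* has 2 rows in the table that start at the same base, chr3:87791453-87804278 and the shorter chr3:87796436-87804278, both on the minus strand of mm9. The shorter row never held more UMI than the longer in any cell. Its UMI came to 100%, 63.6%, 14.5% and 0% of the longer row's in the ChC batches and to 75.0%, 0%, 40% and 27.8% in the Pv batches. In batch 1 each row held 13 UMI. The table's rows of a gene can share molecules. Of 2229 gene names with several rows and any UMI, 2019 had a row at or above every other in every cell while another row also held UMI. The sum for *Bcan* can therefore count a molecule more than once. Most of these percentages rest on few UMI, with 3 against 4 in batch 5 and 0 against 13 in batch 4, and no difference between batches was tested.

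Neurocan, a lectican secreted mostly during development and cut in the adult, was found in every batch. *Ncan* stood at 2.32, 19.2, 156 and 53.9 CPM in the ChC batches and at 5.03, 278, 112 and 103 in the Pv batches. It was below the 3-UMI floor in batches 1 and 5, which come from different cell types, and high in batches 3 and 6, so the groups overlapped. The means were 57.8 ± 68.8 in ChC and 124 ± 113 in Pv (SD, n = 4 batches), and the log2 fold change was -0.85 (SE 1.24, edgeR adjusted p = 0.995). It turned to 0.32 without Pv batch 6 and to 0.016 without ChC animal 1, and it was -3.42 without ChC animal 2.

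Versican, a large lectican also made by cells of the oligodendrocyte lineage, was concentrated in a single batch. *Vcan* stood at 6.96, 5.25, 1.1 and 285 CPM in the ChC batches and at 2.52, 6.94, 0 and 3.40 in the Pv batches. Batch 4 was high and the other 7 batches were at or below the 3-UMI floor. Batch 4 held 91.6% of the level summed over batches, 41 times the next batch, where the median of the 5287 genes with at least 300 UMI held 32.5% in its highest batch and the 90th percentile was 54.4%. Batch 3, from the same animal as batch 4 and sequenced at greater depth, had 3 UMI of *Vcan* against 339. Within batch 4 the gene had a UMI in 14 of 15 cells, with a median of 276 CPM per cell. A shorter *Vcan* row, chr13:89849553-89882117, held 30 UMI, all in batch 4, beside 309 there in the longer row, chr13:89794915-89882117. *Vcan* failed the filter of the test between animals, and without batch 4 no ChC batch was above 6.96. Among ChC batches, batch 4 also had the highest summed CPM of oligodendrocyte (217), astrocyte (256) and other interneuron class markers (1518). Its oligodendrocyte precursor markers were at 5.05, below batch 2 at 105. The part of such cells in the level of *Vcan* was not tested.

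The make-up of the lectican UMI thus changed from batch to batch. *Bcan* made up 86.7%, 72.0%, 35.6% and 3.12% of them in the ChC batches and 70.0%, 18.5%, 55.4% and 32.9% in the Pv batches. *Ncan* made up 3.33%, 22%, 63.8% and 15.4% in ChC and 20.0%, 79.5%, 42.6% and 65.0% in Pv. *Vcan* made up 81.5% in batch 4 and at most 10% elsewhere with rows summed. Each of the 3 led in some ChC batch, with *Bcan* ahead in both batches of animal 1, *Ncan* in batch 3 and *Vcan* in batch 4. The shares in batches 1, 2 and 5 rest on 30, 50 and 10 lectican UMI. They use summed rows: with the longer row of each lectican, *Bcan* had 76.5% in batch 1 on 13 UMI, and in batch 7 it had 47.1% and *Ncan* 50.6%, so the leader there changed. *Vcan* had 17.6% in batch 1 and 14.3% in batch 5 in that way, on 3 and 1 UMI.

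Link proteins hold lecticans to hyaluronan, and *Hapln1* is the family member also known from cartilage. *Hapln1* stood at 2.32, 15.7, 16.1 and 337 CPM in the ChC batches and at 0, 4.63, 64.9 and 5.67 in the Pv batches. It was highest in batch 4, as *Vcan* was, and next highest in Pv batch 7, and the groups overlapped. The 0 of batch 5 allows up to 7.55. Batch 4 held 75.5% of the level summed over batches and was 5.19 times batch 7. The means were 92.7 ± 163 in ChC and 18.8 ± 30.8 in Pv (SD, n = 4 batches). The log2 fold change was 2.27 (SE 1.71, edgeR adjusted p = 0.957), and it was 0.09 without batch 4. Batches 4 and 7 had the highest summed CPM of astrocyte, oligodendrocyte and pyramidal markers in their groups, whose part was not tested.

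*Hapln4* encodes a brain link protein found in nets, where it is a partner of brevican. It stood at 2.32, 7.00, 16.9 and 0 CPM in the ChC batches and at 90.6, 62.5, 44.1 and 154 in the Pv batches. Every Pv batch was above every ChC batch, and the gap between the lowest Pv batch, 7, and the highest ChC batch, 3, was smaller than the SD within Pv. The 0 of batch 4 rests on 1170888 UMI of genes in the filter and allows up to 2.52 CPM. The means were 6.54 ± 7.47 in ChC and 87.8 ± 48.2 in Pv (SD, n = 4 batches), and by animal the levels were 4.54 and 11.1 in ChC against 72.0 and 110 in Pv. The log2 fold change was -3.50 (SE 1.30, edgeR adjusted p = 0.731). With the mean of CPM over cells in place of batch sums, ChC batch 2 reached 61.2 and overlapped with Pv batch 7 at 31.7; in that batch a cell with 1053 UMI held 1 UMI of *Hapln4*, which counts as 950 CPM.

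Tenascin R cross-links lecticans and is made by neurons and oligodendrocytes. *Tnr* stood at 204, 379, 346 and 400 CPM in the ChC batches and at 128, 46.3, 119 and 18.1 in the Pv batches. All ChC batches were above all Pv batches, and the gap between ChC batch 1 and Pv batch 5 was smaller than the SD within ChC. The means were 332 ± 88.2 in ChC and 78.0 ± 54.3 in Pv (SD, n = 4 batches). By animal the levels were 277 and 343 in ChC against 81.1 and 44.4 in Pv. The log2 fold change was 2.31 (SE 0.81, edgeR adjusted p = 0.728). The part of oligodendrocytes and their precursors, whose markers varied between batches as given above, in the level of *Tnr* was not tested.

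Hyaluronan synthases make the backbone at the plasma membrane. *Has2* had 0, 1, 3 and 9 UMI in the ChC batches and 0, 1, 0 and 10 in the Pv batches. Most of them were in batches 4 and 8, at 7.57 and 11.3 CPM. *Has3*, the isoform that makes shorter chains, had 0, 1, 3 and 4 UMI in the ChC batches and 0, 0, 0 and 1 in the Pv batches. Neither gene passed the filter on low counts with all 4 animals or over batches, and no difference between the groups was detectable at this depth. The zeros of both genes in batches 1, 5 and 7 allow up to 6.96, 7.55 and 7.79 CPM.

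Shares of cells depend on depth, so cells were thinned to 10000 UMI each, which left 49 ChC and 59 Pv cells. *Tnr* had a UMI in 47 ChC cells (95.9%, exact 95% interval 86.0 to 99.5) and in 32 Pv cells (54.2%, 40.8 to 67.3). By batch its share ran from 90.0% to 100% in ChC and from 12.5% to 80.0% in Pv. *Hapln4* had a UMI in 4 ChC cells (8.16%, 2.27 to 19.6) and in 31 Pv cells (52.5%, 39.1 to 65.7). By batch its share was 0%, 10%, 21.4% and 0% in ChC and 46.7%, 46.2%, 20.0% and 93.8% in Pv, so ChC batch 3 and Pv batch 7 overlapped. For comparison, *Pvalb* had a UMI in 28 ChC cells (57.1%) and in all 59 Pv cells (100%). The intervals cover counting error and treat cells as independent, though the cells of a group come from 2 animals, so they are no test between the groups. Whether cells of a batch are independent measurements was not tested, which bears on every share, pair count and correlation over cells.

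The lecticans and *Hapln1* spread widely between batches of a group in this measure. *Bcan* was found in 17 ChC and 23 Pv cells, with shares by batch from 7.14% to 57.1% and from 13.3% to 73.3%. *Ncan* was found in 15 ChC and 27 Pv cells, from 0% to 78.6% and from 0% to 92.3%. *Vcan* was found in 12 ChC cells, 11 of them in batch 4, and in 1 Pv cell. *Hapln1* was found in 19 ChC cells, 11 of them in batch 4, and in 9 Pv cells, 7 of them in batch 7. *Has2* was found in 2 and 3 cells. *Has3* and *Acan* were found in 0 of 49 and 0 of 59 cells, where 3 cells would be 6.12% and 5.08% and the exact 95% intervals reach 7.25% and 6.06%.

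**Figure D2:**
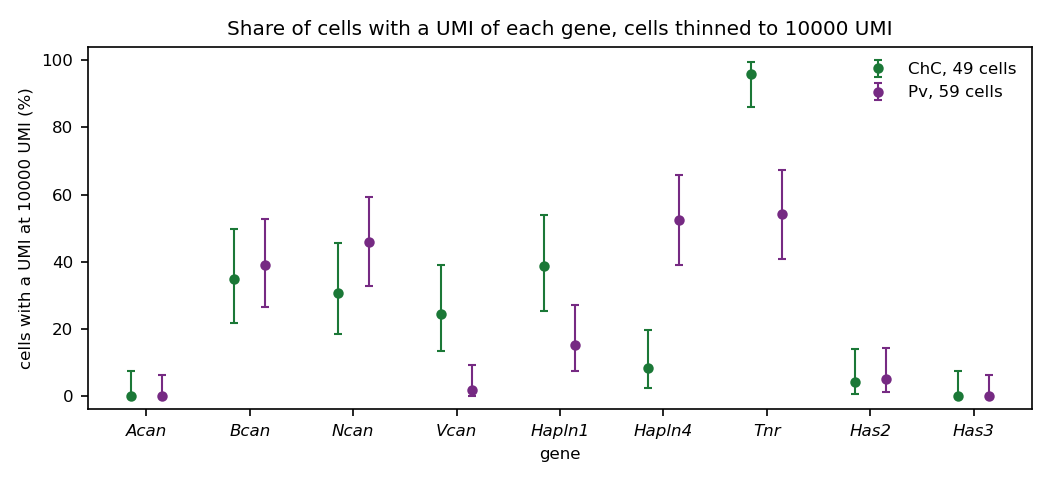
Share of cells with at least 1 UMI of each net gene after thinning to 10000 UMI, in percent, for 49 ChC (green) and 59 Pv (purple) cells, with exact 95% binomial intervals. The intervals treat cells as independent and do not compare the groups: by batch the shares of *Hapln4* and *Vcan* overlap, and 11 of the 12 ChC cells with *Vcan* are from batch 4.

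A cell at 10000 UMI held 2.37 ± 1.13 of the 9 genes in ChC and 2.14 ± 1.14 in Pv (SD over 49 and 59 cells), with a range of 0 to 5 in both. The mean per batch ran from 1.45 in batch 1 to 3.00 in batches 3 and 4 of ChC, and from 1.33 in batch 5 to 2.73 in batch 7 of Pv. *Vcan* and *Hapln1* were found together in 9 ChC cells. *Bcan* and *Vcan* were found together in 0 of 49 ChC cells, though 17 cells held the former and 12 the latter. *Tnr* and *Hapln4* were found together in 4 ChC cells, all those with *Hapln4*, and in 13 Pv cells of the 32 and 31 that held each. Of the 12 cells with *Vcan* 11 came from batch 4, where *Bcan* had a UMI in 1 of 14 cells, so such pairs cannot be told apart from the batches.

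The spread of the net genes over the cells of a batch was often near that of counting noise. A chi-square of a gene's UMI in single cells, against the share expected from each cell's total and divided by its degrees of freedom, is near 1 where counting noise alone separates the cells, and the median gene with at least 20 UMI in a batch had between 1.07 and 1.18. Net genes with as many UMI lay on both sides of this. The lowest were *Hapln4* in batch 8 (0.254) and *Tnr* in batch 6 (0.409). The highest were *Bcan* in batch 2 (2.08) and *Tnr* in batch 2 (2.02), followed by *Hapln1* in batch 4 (1.83), *Ncan* in batch 7 (1.82) and *Bcan* in batch 3 (1.78), and *Vcan* in batch 4 had 1.47. In batch 8 *Hapln4* had a UMI in all 16 cells, at 86.5 to 184 CPM per cell.

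Since a chi-square grows with the UMI of a gene, spread was also expressed as the SD of a gene's rate beyond counting noise, in percent of its mean rate, a measure added after the data were seen. Over the cells of a batch it lay between 0%, for *Hapln4* in batch 8 among others, and 71.4%, for *Bcan* in batch 2, where the median gene had between 6.44% and 22.1%. Over the 4 ChC batches it was 215% for *Vcan*, 188% for *Hapln1*, 90.0% for *Hapln4*, 80.2% for *Ncan*, 63.2% for *Bcan* and 20.1% for *Tnr*. The median gene had 78.0% there and the 90th percentile was 188%, so *Vcan* and *Hapln1* were among the most spread and *Tnr* was below the median. Over the 4 Pv batches it was 194% for *Hapln1*, 89.0% for *Tnr*, 81.0% for *Bcan*, 79.7% for *Ncan* and 52.7% for *Hapln4*. The median gene had 88.3% in Pv and the 90th percentile was 168%, which *Hapln1* exceeded. These values have no test, and the 32 UMI of *Hapln1* in Pv leave it imprecise. The UMI of a net gene and the total UMI of a cell had Spearman correlations from 0.325 (*Hapln1*, batch 7) to 0.997 (*Tnr*, batch 3) over 15 or 16 cells, with 0.968 for *Vcan* in batch 4. Within that batch, the CPM of *Vcan* and of *Hapln1* had a Spearman correlation of -0.0242 over the 14 cells with at least 10000 UMI.

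Levels over the 8 batches, as log2 of CPM plus 1, were compared with those of the 6480 other genes that passed the filter on batches. For *Tnr* the most alike were *D0H4S114* (Pearson 0.961), *Jund* (0.942) and *Gpm6a* (0.927), each with all ChC batches above all Pv batches. For *Hapln4* they were *Ift27* (0.949), *9330179D12Rik* (0.942) and *Zdhhc14* (0.929), each with all Pv batches above all ChC batches. For *Ncan* they were *Gnb5* (0.968), *Sdhc* (0.956) and *Fat3* (0.954), and for *Bcan* they were *Sycp1* (0.936), *Exoc4* (0.936) and *Vps72* (0.927), all of which overlapped between the groups. The batches share animals, and they differ in cell type as the groups do. Each named gene is among the 3 highest of 6480 correlations over only 8 batches. How high unrelated genes would reach was not tested. The group order of the genes most like *Tnr* and *Hapln4* follows from choosing them by likeness.

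Each link protein gene of the family lies beside a lectican gene. In the table's mm9 coordinates *Hapln1* (chr13:89680241-89751437, plus strand) and *Vcan* (chr13:89794915-89882117, minus strand) face each other with their 3′ ends, 43477 bases apart. *Hapln4* (chr8:72607428-72614761, plus strand) and *Ncan* (chr8:72616984-72644743, minus strand) face each other in the same way, 2222 bases apart. *Hapln2* and *Bcan* lie 21393 bases apart on chromosome 3, on the same strand, and *Hapln3* and *Acan* lie 1927 bases apart on chromosome 7. No other gene name lies between the genes of any of the 4 pairs. *Hapln1* and *Vcan* shared batch 4 as their highest batch, while *Hapln4* and *Ncan* had their highest levels in batches 8 and 6. Over the 8 batches the Spearman correlation of levels was -0.071 for *Hapln1* and *Vcan* and 0.31 for *Hapln4* and *Ncan*. The Pearson correlations of log2 of CPM plus 1 were 0.487 and 0.314. *Vcan* lay at or below the 3-UMI floor in every batch but batch 4, so its ranks there rest on few UMI. *Hapln2* had 0 UMI and *Hapln3* had 2 UMI.

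**Figure D3:**
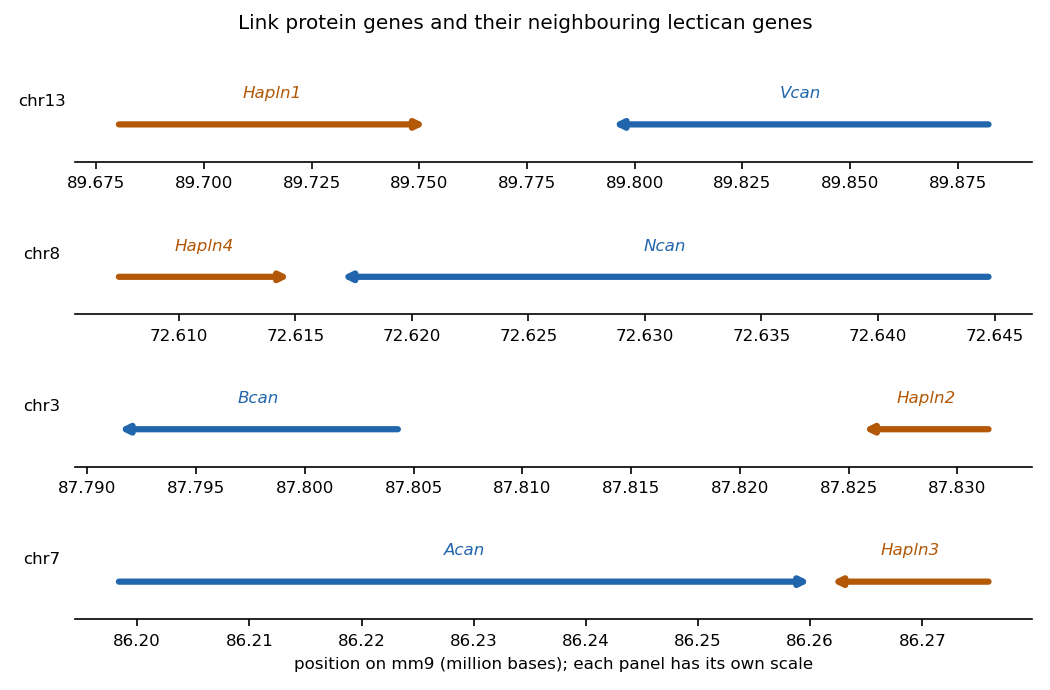
Positions on mm9 of the 4 link protein genes and the lectican gene beside each, with arrows from the 5′ to the 3′ end and a scale of its own for each panel in megabases. *Hapln1* and *Vcan* lie 43477 bases apart and *Hapln4* and *Ncan* 2222 bases apart, both with 3′ ends facing.

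Promoters are shown for *Hapln1* and *Vcan*, the neighbours that were both highest in batch 4, and for *Tnr*, the net gene with the highest mean over the 8 batches. They are RefSeq sequences of build GRCm38.p6, 300 bases around the start of the gene, and 6 of the 9 net genes have an entry, all but *Hapln4*, *Has2* and *Has3*. *Hapln1* lies at chr13:89540386-89540685 on the plus strand, *Vcan* at chr13:89742463-89742762 on the minus strand and *Tnr* at chr1:159523519-159523818 on the plus strand. Capitals mark matches on either strand to 4 motifs: the TATA box (TATAAA), the CCAAT box (CCAAT), the GC box (GGGCGG) and an E-box (CACGTG).
Hapln1: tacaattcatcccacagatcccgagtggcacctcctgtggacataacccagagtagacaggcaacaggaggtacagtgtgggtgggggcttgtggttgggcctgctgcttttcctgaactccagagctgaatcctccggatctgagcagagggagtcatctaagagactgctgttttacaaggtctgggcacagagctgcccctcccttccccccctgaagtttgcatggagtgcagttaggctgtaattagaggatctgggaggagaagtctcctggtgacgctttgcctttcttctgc
Vcan: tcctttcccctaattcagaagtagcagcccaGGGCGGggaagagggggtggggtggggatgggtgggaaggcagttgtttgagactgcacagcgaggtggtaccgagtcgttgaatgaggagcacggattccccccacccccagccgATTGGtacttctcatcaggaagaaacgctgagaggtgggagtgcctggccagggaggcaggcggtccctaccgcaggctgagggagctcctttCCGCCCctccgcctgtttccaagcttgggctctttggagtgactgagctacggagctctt
Tnr: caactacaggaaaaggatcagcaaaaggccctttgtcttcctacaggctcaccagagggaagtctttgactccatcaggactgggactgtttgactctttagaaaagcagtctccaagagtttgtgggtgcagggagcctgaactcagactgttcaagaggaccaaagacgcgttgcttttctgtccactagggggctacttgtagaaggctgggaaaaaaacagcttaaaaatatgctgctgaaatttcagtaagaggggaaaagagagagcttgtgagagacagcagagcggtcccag

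Of the 32851 promoters in the table, 13.6% held a TATA box, 37.4% a CCAAT box, 35.7% a GC box and 7.15% an E-box by these letters. *Vcan* held 1 CCAAT box and 2 GC boxes, and *Hapln1* and *Tnr* held none of the 4 motifs. *Ncan* held 1 TATA box and 1 GC box, *Bcan* 1 CCAAT box and 1 GC box, and *Acan* 1 CCAAT box and 3 GC boxes. The GC content was 48% for *Tnr*, 54.3% for *Hapln1*, 56.7% for *Ncan*, 61% for *Vcan*, 64% for *Bcan* and 74.0% for *Acan*, and the median promoter had 52.7%. *Hapln1* and *Vcan* thus shared none of these motifs. A match describes letters in this window and is no measure of binding.

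Other genes of the net were read from 4 lists, in a table where 16531 of 23335 gene names had any UMI. Of 14 related matrix genes 11 had UMI and 5 were tested, with 0 past the adjusted threshold and 1, *Sparcl1*, with an unadjusted p below 0.05, beside 0% and 6.12% of all genes tested. *Sparcl1*, a secreted glycoprotein that acts at synapses, stood at 260, 320, 481 and 436 CPM in the ChC batches and at 1090, 1467, 649 and 1145 in the Pv batches. All Pv batches were above all ChC batches, as in 1.77% of all genes in the filter on batches, with a log2 fold change of -1.58 (SE 0.55, edgeR adjusted p = 0.728). The other abundant genes of the list, *Crtac1* and *Cspg5*, overlapped between the groups, with log2 fold changes of 0.64 (SE 0.72) and 1.40 (SE 0.93). *Hapln2*, *Tnc* and *Cspg4* were at 0 in every cell.

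Chondroitin sulfate chains, which give lecticans their charge, are built by 21 listed enzymes, of which 20 had UMI and 12 were tested, with 0 past either threshold. *Dse*, which turns chondroitin into dermatan sulfate, had the highest mean and ranged from 27.7 in batch 5 to 1056 in batch 7. *Chpf* and *Csgalnact1*, which extend and start chains, overlapped between the groups, with log2 fold changes of -0.42 (SE 1.02) and 0.71 (SE 1.17). *Chst14* was at 0.

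Enzymes that cut the net and their inhibitors made a list of 18, of which 14 had UMI and 5 were tested, with 0 past either threshold. The most abundant was the hyaluronan-degrading *Cemip*, under its older name *9930013L23Rik*, with means of 291 in ChC and 533 in Pv that overlapped by batch. The lectican-cutting proteases *Adamts15* and *Adamts8* ranged from 0 in batch 6 to 863 in batch 1 and from 6.94 in batch 6 to 422 in batch 1. *Adamts4*, *Mmp2*, *Mmp9* and *Timp1* were at 0 in every cell.

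Receptors and ligands of the net made a list of 18, of which 16 had UMI and 9 were tested, with 0 past either threshold. *Ptprs*, a receptor for chondroitin sulfate, had means of 717 in ChC and 877 in Pv and a log2 fold change of -0.25 (SE 0.65). *Cntn1*, a cell-surface partner of tenascin R, stood at 2093 in batch 1 and between 462 and 794 elsewhere, with a log2 fold change of 0.59 (SE 0.59). *Nptxr*, the neuronal pentraxin receptor, ranged from 2.31 in batch 6 to 561 in batch 7. *Rtn4rl2* and *Otx2*, whose protein is known to reach net-bearing cells from elsewhere, were at 0.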

How the data were processed

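The authors aligned poly(A)-primed reads to mm9 with Bowtie 0.12.7, per the submitters' processing notes, and deposited counts of distinct tags per transcript and cell, without normalization. All 128 columns were mapped to batches and animals, 2 without counts were left out, and the rows of a gene name were summed. UMI were summed over the cells of each animal and compared with edgeR 4.0.16 (TMM, filter on low counts, robust quasi-likelihood test) in R 4.3.3, with Benjamini-Hochberg adjustment over all genes tested. DESeq2 1.42.0 was an alternative. Batches, thinned cells and promoters were described in Python 3.11.15 (pandas 2.3.3, numpy 2.4.6, scipy 1.17.1, matplotlib 3.10.9). Cells were thinned by drawing 10000 UMI without replacement. The fits were checked on simulated counts. Gene models came from GENCODE vM1 and promoters from RefSeq.

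The members and gene lists were chosen with earlier results of these data known. Named are all 9 net genes, the 3 most abundant genes of each list, genes past the threshold, marker and pathway genes at 0, and the 3 genes most like each member in the batch filter. *Pvalb*, *Nkx2-1*, *Gad2*, *Lhx6* and *Kcnc1* were added to check the labels, and *Hapln3* was named after its values were seen.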

Additional observations from a re-analysis of the deposited data

Results flagged for a closer look

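In 18 sets of 4 batches, 1 for each gene and cell type, the highest or lowest batch was compared with its nearest neighbour, and 6 sets had a batch whose gap was past Dixon's 95% limit as a part of the whole range. Chance marks about 1 in 20 sets of normal values, a rate that does not hold for sets of zeros and a few UMI. The share of all genes that this rule would flag was not counted. The 6 of 18 therefore cannot show whether net genes differ from other genes in this. *Vcan* in ChC batch 4 stood at 285 CPM, with 6.96 as the next ChC batch. *Hapln1* in the same batch stood at 337, with 16.1 next. *Hapln1* in Pv batch 7 stood at 64.9 on 25 UMI, with 5.67 next. The other 3 rest on 1 or 2 UMI beside zeros, where the gap always fills the range: *Acan* at 0.367 in ChC batch 3 and at 5.19 in Pv batch 7, and *Has3* at 1.13 in Pv batch 8.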

How the results depend on the processing

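The alternatives changed a single choice each, except that DESeq2 replaced both the test and the normalization, and that thinning cells, or dropping it, also changed which cells were counted. No net gene passed the threshold in a fit that tested it, and *Acan*, *Vcan*, *Has2* and *Has3* were tested in 1, 4, 3 and 1 of the fits. The count of genes called, 0, became 151 with DESeq2, 80 with no filter on low counts and 5 with the 8 batches as samples, which are not independent. Leaving out a batch or an animal gave 0 to 99, and where an animal was left out the lone animal of its group was assumed to vary like the others. The log2 fold change of *Tnr* was positive in all 19 alternatives (1.75 to 2.83) and that of *Hapln4* negative in all 19 (-5.28 to -2.78).

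The sign turned for *Bcan* with batches as samples (-0.34), the row with the most UMI (-0.094), cells thinned to 10000 UMI (-0.67) and library size alone (-0.049). Over batches and animals left out in turn it ran from -0.76 to 0.53. *Ncan* ran from -3.42 to 0.32 in the same way and *Hapln1* from -0.38 to 4.63. *Hapln1* failed the filter with batches as samples, with thinned cells and without batch 7, so these have no value. The causes of these turns were not tested. Genes without overlap numbered 159 to 197 with ChC above and 110 to 148 with Pv above. *Tnr* was among them in all 3 alternatives, and *Hapln4* in 2, not with the mean over cells.

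The alternatives for shares of cells change the depth and the cells counted, or the UMI required. With no thinning, ChC and Pv shares outside the first intervals were 58.7% and 61.9% for *Bcan*, 55.6% and 65.1% for *Ncan* and 25.4% and 77.8% for *Hapln4*. Others were 82.5% for *Tnr* in Pv, 28.6% for *Hapln1* in Pv, 11.1% for *Vcan* in Pv, 14.3% for *Has2* in ChC and 11.1% for *Has3* in ChC. At 5000 UMI they were 15.5% and 26.2% for *Bcan* and 74.1% and 29.5% for *Tnr*, with 31.1% for *Ncan* in Pv, 32.8% for *Hapln4* in Pv, 22.4% for *Hapln1* in ChC and 0% for *Has2* in ChC. With at least 2 UMI they were 6.12% and 22% for *Bcan*, 14.3% and 30.5% for *Ncan*, 18.4% and 3.39% for *Hapln1*, 2.04% and 22% for *Hapln4*, 77.6% and 22% for *Tnr* and 0% and 0% for *Has2*, with 0% for *Vcan* in Pv.

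With 2 animals in each group an exact permutation test over animals cannot go below 0.333, and the rows of *Bcan* and *Vcan* can share molecules. *Acan*, *Has2* and *Has3* had few UMI, and the part of depth in this was not tested.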
